A study of Mus musculus with 6 samples.

Results

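Accessible chromatin was described around 10 genes that encode secreted growth factors and cytokines, Lif, Il11, Inhba, Vegfa, Hbegf, Areg, Pdgfa, Pdgfb, Bmp4 and Edn1, out of 22350 protein-coding genes on the chromosomes that carried peaks. The genes were chosen by name and function, and each was represented by the regions within 100 kb of its annotated 5′ end in the GENCODE annotation of the mouse assembly mm9. The genes lie on chromosomes 5, 7, 11, 13, 14, 15, 17 and 18, and their windows held 84 of 39435 regions. ATAC-seq, in which the transposase Tn5 places sequencing adapters into accessible DNA, had been performed in NMuMG cells, an untransformed epithelial line from mouse mammary gland. After 6 h in serum-free medium the controls were given vehicle, an acid and albumin carrier, over 2 h. The treated cells were given 5 ng/ml of TGFβ1 over 2 h or 12 h. Each condition had 2 biological replicates and 1 peak list made from both. No vehicle list of the later time was used, so that at 12 h the treatment and the longer time without serum cannot be told apart.

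A region here is a set of peaks of at least 150 bp that lay less than 1000 bp apart. A union region joins regions of the 3 lists that overlap or lie less than 1000 bp apart, so that its regions need not overlap each other. The lists give position and width but no read count per peak and no value per replicate, so that no test between conditions could be run and no spread between replicates can be given. The read totals that the study states for its libraries were not used. Counts per list below are numbers of union regions that the list has a region in. The differences below are differences between lists. Absence from a list means only that no peak of at least 150 bp passed the authors' threshold there. The vehicle list was shorter, with 16765 regions against 32548 at 2 h and 33079 at 12 h. A union region found in both TGFβ lists and overlapped by no vehicle region is called TGFβ-only. Shares are given with 95% Wilson intervals, which cover counting error only, since neighbouring regions are neither replicates nor independent.

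Secreted growth factors and cytokines carry signals between cells by binding receptors on the same or on neighbouring cells. In mammary epithelium, ligands of the EGF family drive duct growth through EGFR, cytokines of the interleukin 6 family signal through the shared receptor chain gp130 to STAT3, and activins and bone morphogenetic proteins (BMPs) belong to the same superfamily as TGFβ. Genes of this kind are induced by many stimuli, and their promoters and enhancers often carry sites for AP-1, a dimer of JUN and FOS proteins.

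The 5′ ends of epithelial marker genes were looked up in the same lists. Those of Krt8 and Krt18, which encode the keratin pair of simple epithelia, were covered in all 3 lists, that of Cdh1 (E-cadherin) in both TGFβ lists, and that of Cldn4 at 12 h. This made 2, 3 and 4 of 10 epithelial markers in the vehicle, 2 h and 12 h lists, against 35.9%, 41.4% and 41.6% of protein-coding genes. Epcam, Krt7, Krt19, Cldn7, Grhl2 and Esrp1 were covered in none. The epithelial markers were thus covered no more often than protein-coding genes at large. Of 10 markers of blood, endothelial, liver, neuronal and muscle cells, 0 were covered in any list. Of all protein-coding genes, 57.1% were covered in none.

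Across the 10 windows, 34 of the 84 union regions were in the vehicle list, 72 in the 2 h list and 68 in the 12 h list. All 3 lists held 30 regions (35.7%, 26.3 to 46.4%), against 38.4% of all union regions. TGFβ-only regions numbered 26 (31.0%, 22.1 to 41.5%), against 28.5% of all union regions and 26.8% of those within 100 kb of any protein-coding gene. A further 12 were in the 12 h list alone (14.3%, 8.37 to 23.3%), against 16.3% in the background, and 12 in the 2 h list alone, against 12.9%. The vehicle and 2 h lists shared 4 regions that the 12 h list lacked (4.76%, 1.87 to 11.6%), against 2.25%. No region of the windows was in the vehicle list alone or in the vehicle and 12 h lists alone (0 of 84, 0 to 4.37%), against 1.16% and 0.388%. Each background share lay inside the interval of the windows, so that the windows as a set did not stand apart from the genome in these patterns. In all, 38 of the 72 regions of the 2 h list and 38 of the 68 of the 12 h list had no vehicle region, against 50.5% and 53.6% of these lists in the genome. With both TGFβ lists shortened to their widest intervals, as many as the vehicle list held, 7 of 56 regions (12.5%) were TGFβ-only. This shortening drops narrow regions first. Of 2 h regions, 88.4% had no vehicle region in the narrowest of 10 groups of equal number, and 14.9% in the widest. The effect of list length apart from width was not tested, and the share over all union regions was not computed for the shortened lists.

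**Figure D1:**
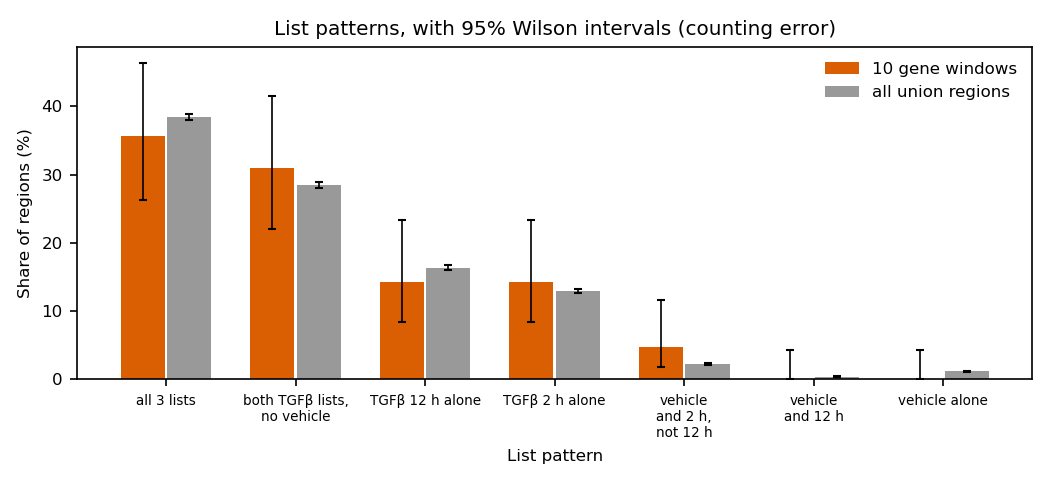
Share of union regions (%) in each list pattern, for the 84 regions in the 10 gene windows (orange) and for all 39435 union regions (grey). Error bars are 95% Wilson intervals, and each grey bar lies inside the interval of the orange bar beside it.

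The genes differed widely from each other. Pdgfb had 16 regions in its window and Lif 13, and 8 regions of each were TGFβ-only. Only 0.107% of protein-coding genes had more TGFβ-only regions than 8. Il11, Vegfa, Hbegf and Areg had 9 regions each, of which 2, 1, 2 and 2 were TGFβ-only. Edn1 had 7 with 2 TGFβ-only and Pdgfa had 5 with 1, while Inhba with 5 regions and Bmp4 with 2 had none, as did 37.3% of protein-coding genes. In all, 8 of 10 genes had a TGFβ-only region, against 62.7% of protein-coding genes. The median gene of the set had 9 regions and 2 TGFβ-only regions, against 5 and 1 for the median protein-coding gene.

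**Figure D2:**
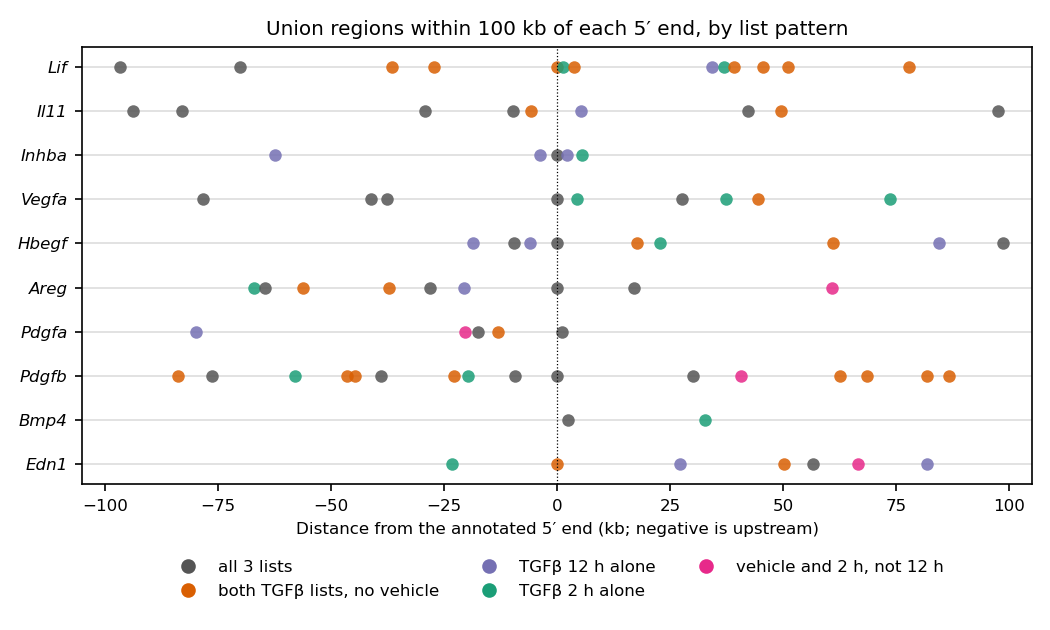
Position of the 84 union regions along each gene's window, as distance from the annotated 5′ end in kb (negative is upstream), with 1 point per region and the colour giving its list pattern. Orange points, the TGFβ-only regions, are most frequent at Lif and Pdgfb, with 8 each, and are missing at Inhba and Bmp4.

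Of the interleukin 6 family, 2 genes were included. Lif encodes leukaemia inhibitory factor, which signals through LIFR and gp130 and takes part in mammary involution. Its window on chromosome 11 held 2 regions in the vehicle list, 12 at 2 h and 11 at 12 h, and the sequence covered by regions was 1076, 6748 and 9347 bp. Both vehicle regions lay far upstream, at other genes (Tbc1d10a and Ccdc157), and the nearest was 70586 bp from the 5′ end of Lif. After TGFβ the nearest region ended 138 bp upstream of the 5′ end at 2 h and 115 bp upstream at 12 h, with widths of 364 and 344 bp. It did not reach the annotated 5′ end in either list.

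Within the gene, an intronic TGFβ-only region was 423 bp wide at 2 h and began 5374 bp downstream of the 5′ end. In the 12 h list it began 3649 bp downstream and was 2154 bp wide, the widest region of the Lif window. The 12 h region was merged from 3 intervals. Of the 12 h regions in the widest of 10 groups of equal number (1255 to 5139 bp), 16.3% had no vehicle region, and of the 2 h regions of 419 to 498 bp, 67.2% had none. A second intronic region, of 177 bp, was listed at 2 h alone. Downstream of the gene, 4 TGFβ-only regions lay 39073 to 77719 bp from the 5′ end, outside any protein-coding gene and nearer to Lif than to any other. The first of these was 487 bp wide at 2 h and 1487 bp at 12 h, and the last 1284 and 1285 bp. The other 2 were 398 and 485 bp wide at 2 h and 384 and 482 bp at 12 h. The one 51016 bp downstream held an exact AP-1 match (TGACTCA, or TGAGTCA on the other strand), shown here in capitals with 24 bases on each side. An exact match is a description of the letters and not a measured binding site, and 41.8% of all union regions held one. It was chosen after its values were seen, as an example of the distal regions of this window.
Lif, chr11:4208796-4208850, plus strand: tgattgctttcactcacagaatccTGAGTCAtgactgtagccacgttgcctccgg

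The remaining TGFβ-only regions of the window lay upstream, 27120 bp away, nearest to Osm, and 36621 bp away, nearest to Gatsl3. Osm, which encodes oncostatin M, a cytokine of the same family, lies upstream of Lif on the same chromosome. Its window held the very same 13 regions, 8 of them TGFβ-only, and is not a separate set. The regions are therefore not attributed to Lif by their position alone.

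Il11 encodes interleukin 11, a gp130 cytokine with roles in fibrosis and bone metastasis. Its window on chromosome 7 held 6, 8 and 9 regions in the vehicle, 2 h and 12 h lists, covering 4604, 6816 and 6902 bp. No list covered its 5′ end or came within 1000 bp of it. The nearest region was 9701 bp away in the vehicle list, at Rpl28, 5828 bp away at 2 h, and 5295 bp away at 12 h. The last of these was a 309 bp region in an intron of Il11, listed at 12 h alone, and it was the only one of the 9 regions whose nearest gene was Il11. All 6 vehicle regions were kept in both TGFβ lists and lay at the start sites of other genes. Among them was the widest region of the window at 12 h, at Suv420h2, with 1021, 1065 and 1252 bp in the 3 lists.

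Upstream of Il11, 5806 bp from its 5′ end, a TGFβ-only region had a width of 1045 bp at 2 h and of 1159 bp at 12 h. This union region covered the 5′ end of the neighbouring gene 2210411K11Rik and overlapped its exons. Among 2 h regions of 970 to 1236 bp, 15.5% had no vehicle region. It held 1 AP-1 match, 6074 bp upstream of the 5′ end of Il11, which is shown on the strand of the gene.
Il11, chr7:4740504-4740558, minus strand: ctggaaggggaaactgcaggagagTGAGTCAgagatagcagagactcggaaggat
A second TGFβ-only region, 49444 bp downstream and nearest to Suv420h2, also held an AP-1 match and was 482 bp wide at 2 h and 450 bp at 12 h.

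Of the TGFβ superfamily, Inhba and Bmp4 were included. Inhba encodes the βA subunit, which forms activin A as a dimer. Its window on chromosome 13 held 1, 2 and 4 regions in the vehicle, 2 h and 12 h lists, covering 511, 1396 and 1165 bp, and no region was TGFβ-only. The region of all 3 lists at the start of the gene did not cover the 5′ end. It began 406 bp downstream in the vehicle list with a width of 511 bp, 8 bp downstream at 2 h with 681 bp, and 411 bp downstream at 12 h with 275 bp. It was thus widest at 2 h and narrower at 12 h than with vehicle. The other 4 regions were each in 1 TGFβ list. A 715 bp region over a coding exon, 5459 bp downstream, was listed at 2 h alone, and regions of 381, 265 and 244 bp, lying 2288 bp downstream, 3800 bp upstream and 62333 bp upstream, at 12 h alone. The first of these 3 was the widest region of the window at 12 h.

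Inhba was the only gene of the set with no AP-1 match in any region. Its 12 h regions held a SMAD palindrome (GTCTAGAC) 62457 bp upstream and a cAMP response element (CRE, TGACGTCA) 3924 bp upstream. Both are shown with 24 bases on each side, and both were chosen after their values were seen. The palindrome occurred in 1.23% of all union regions and the CRE in 2.14%.
Inhba SMAD, chr13:16041203-16041258, plus strand: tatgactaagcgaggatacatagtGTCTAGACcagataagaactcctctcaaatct
Inhba CRE, chr13:16099736-16099791, plus strand: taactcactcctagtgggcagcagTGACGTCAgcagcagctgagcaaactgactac

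Bmp4 encodes a BMP that binds BMPR1A, BMPR1B and BMPR2. Its window on chromosome 14 was the sparsest, with 1, 2 and 1 regions in the vehicle, 2 h and 12 h lists, and none was TGFβ-only. The 5′ end was not covered. The region nearest to it lay inside the gene over an untranslated exon, 2886 bp downstream in the vehicle list, 2494 bp at 2 h and 2883 bp at 12 h, with widths of 715, 1317 and 719 bp. The 12 h width differed from the vehicle width by 4 bp, while the 2 h region was wider than both. The other region, of 227 bp and 32640 bp downstream, was in the 2 h list alone and held the only AP-1 match of the window.

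Of the EGF family, Hbegf and Areg encode membrane-anchored precursors that are shed as ligands of EGFR. The 5′ end of Hbegf (heparin-binding EGF-like growth factor) was covered in all 3 lists, by regions of 621, 2190 and 2198 bp. The upstream edge moved little, from 306 bp upstream with vehicle to 329 bp at 2 h and 323 bp at 12 h, so that the added width lay within the gene. Its window held 3, 6 and 8 regions in the vehicle, 2 h and 12 h lists, covering 1516, 6184 and 7045 bp. The nearest TGFβ-only region lay 17727 bp downstream and was 283 bp wide at 2 h and 245 bp at 12 h, and the other lay 61017 bp downstream at Pfdn1. A region 98544 bp downstream, in an intron of Pfdn1, was in all 3 lists, with widths of 224, 2045 and 1932 bp, and its vehicle piece lay 100081 bp away, just outside the window, into which only the TGFβ regions reached. Of the 9 regions, 5 held an AP-1 match, 8 matches in all.

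Areg encodes amphiregulin, the main EGFR ligand of pubertal duct growth. Its window on chromosome 5 held 5, 8 and 7 regions in the vehicle, 2 h and 12 h lists, covering 2909, 5784 and 5837 bp. The region over its 5′ end was 804, 675 and 1028 bp wide in the same order. It was one of the 2 shared regions of the set that were narrower at 2 h than with vehicle. It held a CRE 77 bp upstream of the 5′ end, which is shown here as the only match of the 4 searched motifs in that region. A CRE occurred in 5.12% of all union regions within 1000 bp of a start site.
Areg CRE, chr5:91568540-91568595, plus strand: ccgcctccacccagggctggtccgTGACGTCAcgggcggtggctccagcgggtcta

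The widest region of the Areg window at 12 h, 28185 bp upstream and outside any protein-coding gene, was in all 3 lists and measured 479, 1639 and 1675 bp. The nearest TGFβ-only region lay 37170 bp upstream, nearest to Ereg, which encodes the EGFR ligand epiregulin, and was 590 bp wide at 2 h and 973 bp at 12 h. One of its 2 AP-1 matches, the nearer to the centre of the region, is shown.
Areg AP-1, chr5:91530804-91530858, plus strand: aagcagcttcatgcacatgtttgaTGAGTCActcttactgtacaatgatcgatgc
A second TGFβ-only region, 56128 bp upstream, lay in an intron of Ereg. A region 60768 bp downstream of the Areg 5′ end was 303 bp wide with vehicle and 463 bp at 2 h, and was missing at 12 h. Ereg shared most of this stretch, so that 4 of the 9 regions in the Areg window were nearest to Ereg.

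Vegfa and Edn1 encode ligands that act on blood vessels. Vegfa, vascular endothelial growth factor A, binds FLT1 and KDR. Its 5′ end was covered in all 3 lists. The vehicle list held 2 separate regions there, of 293 bp over the 5′ end and 296 bp within the gene, in place of which the 2 h list held 1 region of 2125 bp and the 12 h list 1 of 2163 bp. The upstream edge lay 155 bp from the 5′ end with vehicle and 579 bp in both TGFβ lists. The window on chromosome 17 held 5, 9 and 6 union regions in the vehicle, 2 h and 12 h lists, with the vehicle pair at the start counted once, covering 2549, 7261 and 6056 bp, and the 3 regions missing at 12 h had been listed at 2 h alone. Those 3 were 351, 592 and 773 bp wide and lay 4469, 37400 and 73614 bp downstream. The only TGFβ-only region lay 44387 bp downstream, nearest to Vegfa and outside any protein-coding gene, with 891 bp at 2 h and 1272 bp at 12 h. It held the AP-1 match shown here.
Vegfa, chr17:46123879-46123933, minus strand: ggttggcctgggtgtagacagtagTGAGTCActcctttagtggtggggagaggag

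Edn1 encodes endothelin 1, a peptide that constricts vessels and acts on EDNRA and EDNRB. With Lif, it was the gene whose vehicle regions lay farthest from the 5′ end. Its nearest vehicle region was 56479 bp away, and its 5′ end was covered by a TGFβ-only region of 520 bp at 2 h and 618 bp at 12 h. The RefSeq start site, 206 bp downstream of the GENCODE 5′ end, was covered in the same 2 lists. Among 2 h regions of 498 to 587 bp, 57.1% had no vehicle region, so that its absence from the vehicle list was frequent for its width. The part of the region upstream of the 5′ end is printed because Edn1 was the only gene of the set with a TGFβ-only region over its 5′ end. Neither this stretch nor the rest of the region held an exact AP-1, SMAD or CRE match.
Edn1, chr13:42396501-42396638, plus strand: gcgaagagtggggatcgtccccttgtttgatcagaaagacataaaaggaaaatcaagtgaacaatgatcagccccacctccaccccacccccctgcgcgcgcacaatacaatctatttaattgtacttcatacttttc

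The Edn1 window held 2, 5 and 5 regions in the vehicle, 2 h and 12 h lists, covering 956, 3544 and 2546 bp, and all 7 were nearest to Edn1 among protein-coding genes. The second TGFβ-only region, 50264 bp downstream, was 557 bp wide at 2 h and 474 bp at 12 h, and it held an AP-1 match, shown here although the rule for naming took only the nearest region.
Edn1 distal, chr13:42447209-42447263, plus strand: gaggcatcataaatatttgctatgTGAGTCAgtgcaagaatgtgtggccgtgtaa
The widest region at 12 h lay in a union region 56472 bp downstream that had a vehicle region of 447 bp, a 2 h region of 1343 bp and a 12 h region of 637 bp. The vehicle and 12 h regions did not overlap each other, and the 2 h region overlapped both. A vehicle region 66450 bp downstream was 509 bp wide, measured 722 bp at 2 h and was missing at 12 h. Regions 27276 and 81872 bp downstream were listed at 12 h alone, and 1 region 23253 bp upstream at 2 h alone.

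Pdgfa and Pdgfb encode the chains of platelet-derived growth factor, which stimulates fibroblasts and other mesenchymal cells through PDGFRA and PDGFRB. Pdgfb had the largest number of regions in its window on chromosome 15, with 6, 16 and 13 union regions in the vehicle, 2 h and 12 h lists, covering 3678, 13256 and 10762 bp. In the vehicle list the region at the start of the gene began 735 bp downstream of the 5′ end and was 1408 bp wide. At 2 h it measured 2774 bp and at 12 h 2598 bp, and it then covered the 5′ end, reaching 317 and 300 bp upstream. It was the widest region of the window at 12 h. This region held an AP-1 match 980 bp downstream of the 5′ end. That match is shown with the match of the nearest TGFβ-only region, 22707 bp upstream.
Pdgfb at the start, chr15:79844228-79844282, minus strand: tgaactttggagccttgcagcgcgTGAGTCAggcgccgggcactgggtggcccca
Pdgfb upstream, chr15:79868230-79868284, minus strand: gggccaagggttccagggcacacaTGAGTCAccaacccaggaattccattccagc

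The upstream TGFβ-only region of Pdgfb was 381 bp wide at 2 h and 599 bp at 12 h, and it was the only one of the 8 that was nearer to Pdgfb than to another gene. Of the other 7, 3 lay 44658 to 83817 bp upstream, nearest to Rpl3 or Syngr1, and 4 lay 62549 to 86546 bp downstream, nearest to Cbx7 or Apobec3. The widest of them, in an intron of Cbx7 62549 bp downstream, had widths of 2005 and 2003 bp in the 2 TGFβ lists. In the widest of the 10 groups of 2 h regions (1236 to 3991 bp), 14.9% had no vehicle region. A vehicle region of 180 bp, 40608 bp downstream, was 291 bp wide at 2 h and missing at 12 h.

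Pdgfa, on chromosome 5, had 3, 4 and 4 union regions in its window, covering 1529, 3370 and 4255 bp. Its GENCODE 5′ end was not covered. The nearest region lay within the gene, starting 1869, 1102 and 1136 bp downstream in the 3 lists. Its union region also covered the 5′ end of another protein-coding gene, 6330403L08Rik. This union region held 862 bp of vehicle sequence, 2 pieces of 1594 and 225 bp at 2 h, and 1 of 2179 bp at 12 h. One RefSeq start site of Pdgfa, 2426 bp downstream of its GENCODE 5′ end, was covered in all 3 lists, and another, 3089 bp downstream, at 12 h alone. The region held an AP-1 match 4247 bp downstream of the Pdgfa 5′ end, within the smaller of the 2 pieces listed at 2 h.
Pdgfa, chr5:139469047-139469101, minus strand: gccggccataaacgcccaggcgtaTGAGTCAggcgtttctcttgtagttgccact
The TGFβ-only region, 13032 bp upstream, was 495 bp wide at 2 h and 632 bp at 12 h and held no AP-1 or SMAD match. A vehicle region 20397 bp upstream, of 279 bp with vehicle and 284 bp at 2 h, was missing at 12 h.

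**Figure D3:**
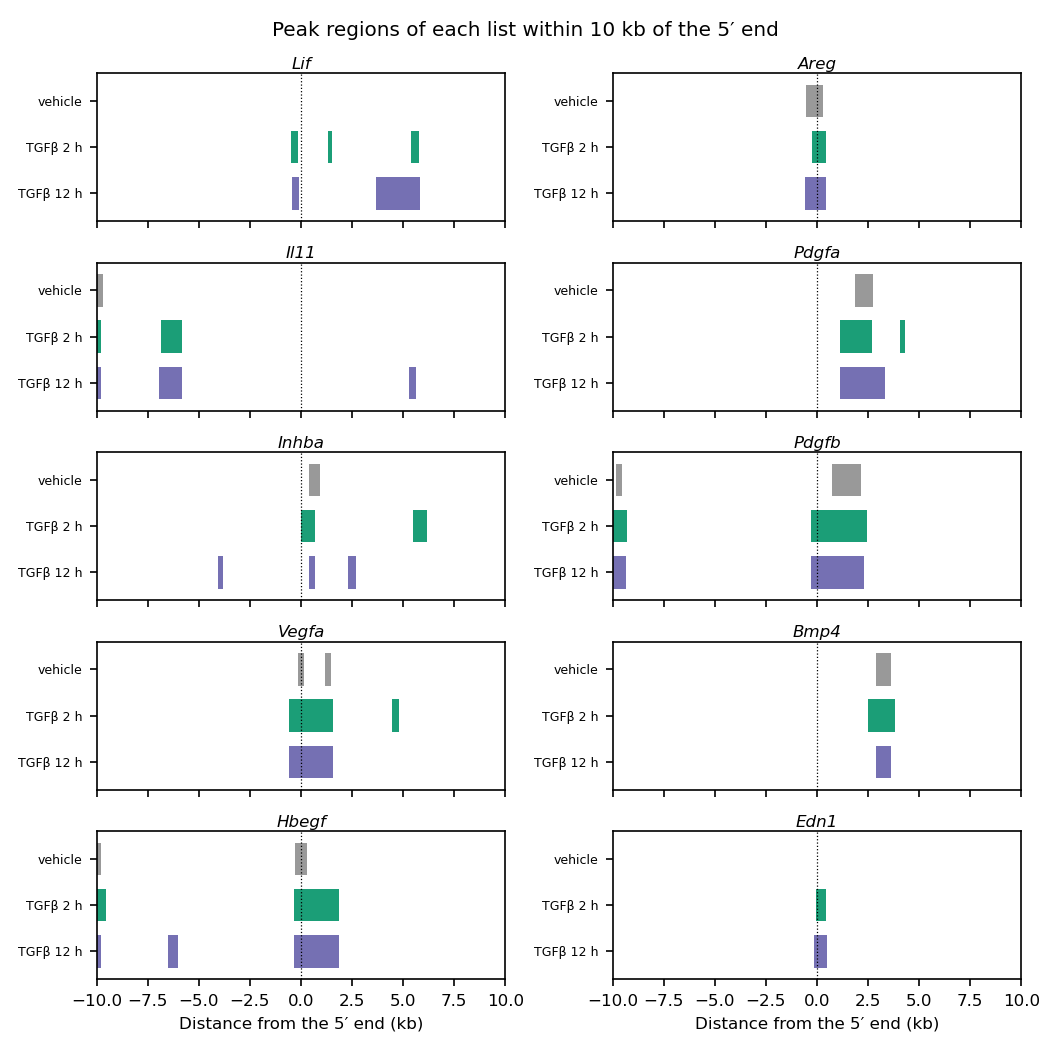
Regions of the vehicle (grey), 2 h (green) and 12 h (purple) lists within 10 kb of each gene's 5′ end, drawn to scale as distance in kb with the direction of transcription to the right and the dotted line at the 5′ end. Bars cross the line in all 3 lists at Vegfa, Hbegf and Areg, in both TGFβ lists at Pdgfb and Edn1, and in none at the other 5 genes.

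Over the set, the vehicle list covered the 5′ ends of 3 genes (Vegfa, Hbegf and Areg), and the 2 h and 12 h lists those of 5, with Pdgfb and Edn1 added. Over all protein-coding genes the shares were 35.9%, 41.4% and 41.6%. The 2 genes covered only after TGFβ compare with 4.72% of protein-coding genes. The 5 genes covered in no list, Lif, Il11, Inhba, Pdgfa and Bmp4, compare with 57.1%. These counts use only the GENCODE 5′ end of each gene, and other start sites can be accessible. A RefSeq start site of Pdgfa was covered in all 3 lists. The regions 5295 bp downstream in Il11, 2288 bp in Inhba and 2494 bp in Bmp4 lay within 1000 bp of an annotated transcript start. With a margin of 1000 bp the counts were 5, 7 and 7, against 39.4%, 45% and 45% of protein-coding genes, which add Inhba in all 3 lists and Lif after TGFβ, and move Pdgfb into the vehicle count.

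Vehicle regions of the set were widened in the TGFβ lists, as they were in the genome. Where a vehicle region matched a single 2 h region and the reverse, 30 of 32 were wider at 2 h (93.8%, 79.9 to 98.3%), against 82.7% of all matched regions, with a median difference of 165.5 bp against 147 bp. At 12 h, 23 of 28 were wider (82.1%, 64.4 to 92.1%), against 83.6%, with a median difference of 181 bp against 175 bp. The median width of the 30 regions in all 3 lists was 559.5, 890.5 and 816 bp in the vehicle, 2 h and 12 h lists. The 26 TGFβ-only regions had medians of 474.5 and 572 bp, the 12 regions of the 2 h list alone 506 bp, and the 12 of the 12 h list alone 342 bp. Over all union regions, the medians of those in all 3 lists were 603, 830.5 and 859 bp. For TGFβ-only regions they were 463 and 513 bp, for the 2 h list alone 347 bp, and for the 12 h list alone 370 bp.

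**Figure D4:**
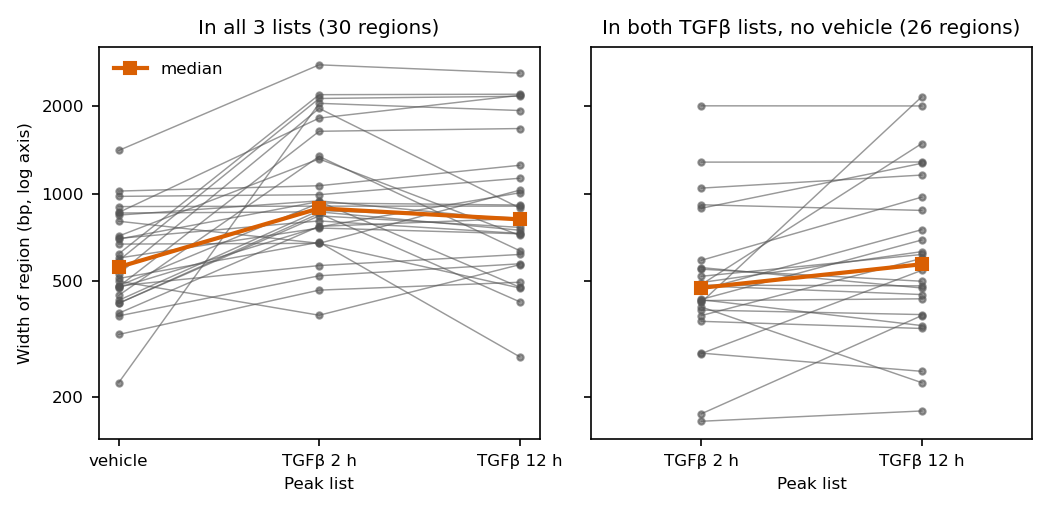
Width in bp (log axis) of the 30 regions found in all 3 lists (left) and of the 26 TGFβ-only regions (right), with 1 line per region and the median in orange, and with pieces within 1 union region added up. The left median is 559.5, 890.5 and 816 bp from left to right, and the right one is 474.5 bp at 2 h and 572 bp at 12 h.

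All 34 vehicle regions of the windows were present at 2 h, where 3.66% of all vehicle regions were missing. At 12 h, 30 of 34 were present (88.2%, 73.4 to 95.3%), and the 4 missing ones, against 8.08% missing in the genome, were the regions of Areg, Pdgfa, Pdgfb and Edn1 given above, with 180 to 509 bp under vehicle. These 4 of 10 genes compare with 15.9% of protein-coding genes that had such a region in their window. Presence here was counted by union region. By direct overlap, 6 of the 36 separate vehicle regions had no 12 h region over them, against 8.6% in the genome, and none lacked a 2 h region, against 3.95%. The additional 2 were the Edn1 region of 447 bp named above and a 255 bp region 10896 bp upstream of Pdgfb, each in a union region that the 12 h list reached elsewhere. Of 38 regions listed at 2 h without a vehicle region, 26 were also listed at 12 h (68.4%, 52.5 to 80.9%), against 68.8% in the genome.

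**Figure D5:**
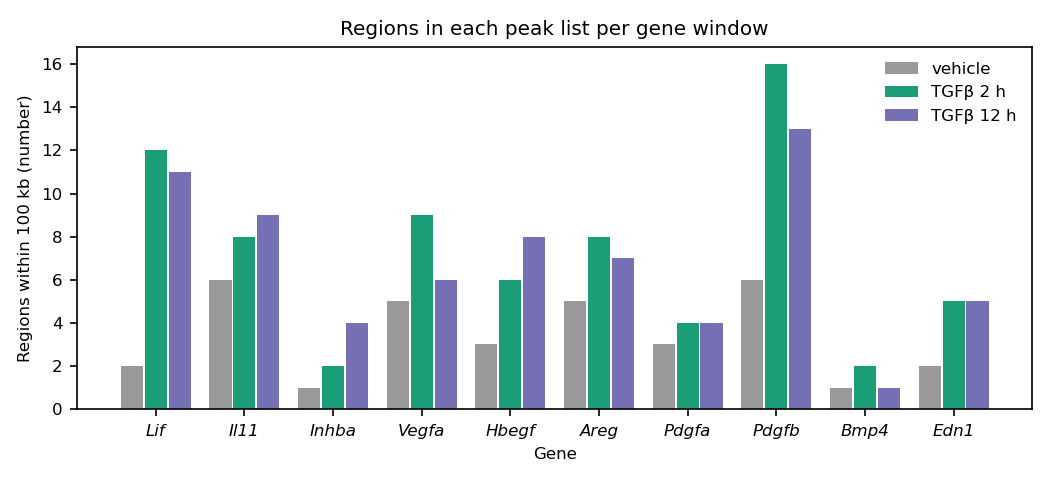
Number of regions within 100 kb of each gene's 5′ end in the vehicle (grey), 2 h (green) and 12 h (purple) lists. Vehicle counts run from 1 to 6, and the TGFβ counts reach 16 at Pdgfb and 12 at Lif.

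Most regions lay away from the start sites. Only 7 of the 84 lay over or within 1 kb of the 5′ end of their gene, and 14 lay 1 to 10 kb, 34 lay 10 to 50 kb and 29 lay 50 to 100 kb away. TGFβ-only regions made up 2 of 7, 2 of 14, 12 of 34 and 10 of 29 in these classes. Upstream and downstream sides held 38 and 41 regions, with 11 and 14 TGFβ-only. For 43 regions the nearest protein-coding 5′ end was that of the named gene, and 12 of these were TGFβ-only. For the other 41 it was another gene's, and 14 were TGFβ-only. The same classes were not counted over all union regions, so that these numbers only describe the 84 regions. Of all 84 regions, 45 overlapped no protein-coding gene and 14 lay within the named gene itself.

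AP-1 matches were counted in the 500 bp around the centre of the 57 distal regions, those more than 1000 bp from any annotated start site. They were found in 24 (42.1%, 30.2 to 55.0%), against 46% of all distal regions, and in 9 of 98 flanking windows of the same length, taken 5000 bp to each side. Matches farther from the centre were not counted here, such as the Vegfa match shown above, which lay 304 bp from it. Of distal TGFβ-only regions, 8 of 19 had a match in this window (42.1%, 23.1 to 63.7%), against 51.6% of all such regions. Of those in all 3 lists it was 7 of 12 (58.3%, 32.0 to 80.7%), against 48.6%. Of the regions listed at 12 h alone, 6 of 10 held one, against 49.1%, and of those listed at 2 h alone, 2 of 12 (16.7%), against 33.5%. Of the 4 regions shared by vehicle and 2 h without 12 h, 1 had a match in the 500 bp, against 26.7%. That match lay outside the region itself, a Pdgfb region of 291 bp. The intervals overlapped, and the background lay inside the 3 that are given. Over their whole length, 35 of the 84 regions held an AP-1 match (41.7%, against 41.8% of all union regions), 3 a SMAD palindrome, 4 a CRE and 3 the CTCF consensus, against 1.23%, 2.14% and 4.88%. Lif, Hbegf, Pdgfb and Areg held the most AP-1 matches, with 9, 8, 8 and 7 of 44.

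The families of the 10 genes were examined in the same way. Of 22 other ligands of the same families, the 5′ ends of 7, 11 and 9 were covered in the vehicle, 2 h and 12 h lists. TGFβ-only regions were 24.9% of the regions summed over their windows, against 31.0% for the 10 genes and 23.8% for all protein-coding genes. These sums count a region once for each window that holds it. The Osm window held the same regions as the Lif window, so that its 8 TGFβ-only regions entered both shares. The windows of Ereg and Epgn also overlapped that of Areg. Il6, which encodes the founding cytokine of the family of Lif and Il11, and Vegfb were covered after TGFβ and not with vehicle. Edn2 and Figf (VEGF-D) were covered at 2 h alone, and Pdgfd and Edn3 had no region at all in their windows. Of 20 receptors, 8, 9 and 7 were covered, and the TGFβ-only share was 30.9%.

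Egfr, the receptor of amphiregulin and HB-EGF, had 10 TGFβ-only regions among 14, more than any of the 10 ligand genes, and its 5′ end was covered in all 3 lists. Erbb2 and Erbb3 were covered in all 3 lists too, while Erbb4 and Ednrb had no region. The receptor genes of LIF and IL-11 (Lifr, Il6st and Il11ra1) and of PDGF (Pdgfra and Pdgfrb) were covered in none. Of 5 secreted antagonists of activin and BMPs, Fst, which encodes the activin-binding protein follistatin, was covered at 2 h alone and had 5 TGFβ-only regions among 9, and Fstl3, Nog, Grem1 and Chrd were covered in no list.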

How the data were processed

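ATAC-seq libraries of NMuMG cells in 3 conditions with 2 replicates each were analysed from 1 deposited peak list per condition, with the groups taken from the sample labels. The authors mapped the reads to mm9, called peaks with MACS2 2.1.2 (the version is from the submitters' processing notes, which also list deepTools), and kept peaks reproducible between both replicates. Positions were used as the authors deposited them. The vehicle list as deposited also carries a score whose scale is not given in the sources used here, and it was left aside, and in the TGFβ lists the same column only numbers the lines. The study states read totals per library, which were not used here, and the lists hold no read count per peak.

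Distinct intervals of at least 150 bp, with gaps under 1000 bp merged, gave regions per list. Regions of the 3 lists were merged by the same gap into the union. A list was counted in each union region that it overlapped by at least 1 bp. 5′ ends were those of GENCODE vM1 genes on NCBIM37, the assembly of mm9, and RefSeq start sites were placed by matching promoter sequences. Motifs were exact matches on both strands. Scripts in Python 3.11.15 (numpy 2.4.6, scipy 1.17.1, matplotlib 3.10.9) were tested on simulated intervals and sequences. Counts are descriptions, with 95% Wilson intervals for shares. Regions were named by rule (that at or nearest to the 5′ end, the nearest TGFβ-only region, the widest at 12 h and vehicle regions missing at 12 h), and other regions are named beside them for completeness. The genes and lists were chosen with earlier results of these data known. One sequence is not reported here.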

Additional observations from a re-analysis of the deposited data

How the results depend on the processing

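No paired analysis was possible because each condition has 1 list made from both replicates, and for the same reason no replicate was left out. Merging gaps under 500 or 2000 bp or only touching intervals, keeping intervals of any width, and asking for an overlap of 50% of the shorter region kept each count over the 10 genes within 1.5 times and each share inside its interval. Counted within each list in place of the union, an alternative chosen after seeing the data, the windows held 36, 73 and 68 regions. Depth was not examined.

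Shortening the TGFβ lists by width was the only alternative that moved the TGFβ-only share out of its interval. With both TGFβ lists shortened to their widest intervals, as many as the vehicle list held (18337), TGFβ-only regions fell from 26 to 7 and their share to 12.5%, regions of the 2 h list alone to 7, and the TGFβ lists held 43 and 40 regions at 2 h and 12 h.

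The window set the counts but not the TGFβ-only share. Within 50 kb there were 55 union regions, 16 of them TGFβ-only and 2 shared by vehicle and 2 h without 12 h, with 22, 47 and 44 in the vehicle, 2 h and 12 h lists. Within 200 kb there were 152, of which 57 were in all 3 lists, 46 TGFβ-only, 19 at 12 h alone and 23 at 2 h alone, with 64, 131 and 122 in the lists. Taking only regions nearest to the gene left 43, with 13 in all 3 lists, 12 TGFβ-only and 6 at 12 h alone. The share with AP-1 matches among regions of all 3 lists moved to 25% in a 200 bp window and to 26.7% with start sites included. With a margin of 1000 bp, 5 genes were covered in the vehicle list. Of 210 counts per gene and list, 45 moved by over 1.5 times.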
